A study of Mus with 96 samples.

Results

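The livers compared here were taken at ZT22, late in the dark phase (ZT counts hours from lights on), from chow-fed mice with and without Bmal1 in hepatocytes. Members were chosen by their titles: the 4 chow Hep-Bmal1KO libraries of ZT22 and the 4 chow Hep-Bmal1WT libraries of ZT22, 8 of 96 libraries in all. The series crosses both genotypes with 2 diets, chow (NC) and cdHFD, and samples livers at ZT2, ZT6, ZT10, ZT14, ZT18 and ZT22. The cdHFD is high in fat, lacks choline and holds 2% cholesterol, and the diets were fed for 2 weeks. Hep-Bmal1KO mice carry 1 Alb-Cre allele, driven by the albumin promoter and so active in hepatocytes, and both their Bmal1 alleles are floxed. Hep-Bmal1WT mice are littermates with the same floxed alleles and no Cre, so the groups differ by Cre as well as by the deletion. Each group holds 4 young adult mice, 2 males and 2 females, and the values of a group are given below with the males first. The 4 Hep-Bmal1KO and 4 Hep-Bmal1WT chow libraries of ZT10, taken 12 h away from other mice, serve to ask which differences were also measured there.

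BMAL1 (gene symbol Arntl in the count table) pairs with CLOCK or NPAS2 and activates genes that carry E-boxes, among them Per, Cry and Nr1d1, whose proteins then repress the pair or the Arntl gene. In hepatocytes this loop runs beside feeding signals and times much of the liver's metabolism. Cholesterol is made from acetyl-CoA through mevalonate, isoprenoids, squalene and lanosterol, a route driven by SREBP2 and closed by sterols. The liver also conjugates foreign compounds, clears ammonia through the urea cycle and hydrolyses esters, and these functions make up most of the gene lists described below.

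Levels are given as CPM, read counts scaled by library size. The table counts reads per gene from the 3′ ends of transcripts (BRB-seq, a bulk method in which barcoded samples are pooled), with 5264859 to 6628462 reads on genes in the WT and 6111260 to 7331791 in the KO libraries of ZT22. Reads assigned to no gene made up 28.7 to 39.2% in WT and 22.6 to 30% in KO, and the library names in the labels, a letter and a number, carry 12 numbers, each with libraries of 1 genotype only, so number and genotype cannot be told apart. Each library was placed on a scale from the WT (0) to the KO (1) median of its time, first by 20 genes that differed between genotypes at the other 5 times and then by 10 clock genes. By the 20 genes the ZT22 libraries lay at -0.206 to 0.204 for WT and 0.972 to 1.02 for KO, as labelled. By the clock genes the WT libraries of ZT22 lay at -0.505, -0.208, 0.721 and 0.581, so the females, replicates 3 and 4, were nearer to the KO median, and the KO libraries at 0.797, 0.792, 0.952 and 0.946. A library was taken as against its label only where both scales placed it past 0.5 on the side of the other genotype. The library labelled Hep-Bmal1KO ZT10 replicate 3 lay at -0.0114 on them and at -0.0892 on the clock genes, with the WT, and 4 of the 48 chow libraries went against their label in this way. ZT10 values are therefore given with and without these 4 libraries. WT ZT22 replicate 4 held transcripts of fat and pancreas that were near 0 in the other 7 libraries (Adipoq 9.27, Cpa1 10.2 and Pnlip 8.21 CPM). Of the 5 acinar markers 4 showed this, while the fifth, Cela1, lay at 20.6 to 87.1 CPM over the 8 libraries and was highest in KO replicates 1 and 2. The summed hepatocyte markers were lower in KO (87200 to 103000 CPM) than in WT (136000 to 170000 CPM), most of it Alb, and summed cholangiocyte markers higher (65.8 to 103 against 32 to 51.1 CPM), led by Spp1 and Sox9 while Krt19 and Krt7 were not higher. None of the 6 hepatocyte and 5 cholangiocyte markers passed the test. The fitted log2 differences of the 6 ran from -1.28 to 0.00239, with a median of -0.113. The part of both marker sets in the results below was not tested. In bulk RNA, fewer cells of a type and less RNA per cell cannot be told apart.

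At ZT22, 75 of 15548 genes tested differed between the genotypes (0.482%; edgeR quasi-likelihood test over the 48 chow libraries, Benjamini-Hochberg adjusted p under 0.05). Of these, 34 were higher in KO (0.219% of all genes) and 41 lower (0.264%), while 1511 genes had an unadjusted p under 0.05 (9.72%). The higher genes included glutathione transferases, cholesterol synthesis enzymes and Lpl, and the lower ones enzymes of amino acid and fructose metabolism, carboxylesterases, mitochondrial transcripts and the carbonic anhydrase Car14. The 4 KO and 4 WT values did not overlap for 74 of the 75 genes, against 1016 of all genes (6.53%). The fitted differences of all genes had a median of 0.00344 on the log2 scale. The count depends on single mice: leaving out 1 of the 8 libraries gave 21 to 53 genes, 21 each without WT replicate 2, 3 or 4. It depends on the model too, with 230 genes when sex was a covariate and 179 by DESeq2. Without the 4 libraries against their label, none of them from ZT22, 213 genes were called, because the chow groups share 1 estimate of the spread. Mice of 1 group but different sex differed by 91.3 to 119 times the sampling noise at ZT22, and those of the same sex by 9.81 to 20.1 times. Of the 39 genes called at ZT22 that are named by rule, 12 kept the call whichever of the 8 was left out: Cyp3a59, Hectd2os, Gstm2, Gstm3, Cyp51, Nsdhl, Cyp2c55, Car14, Asl, Gpt2, Khk and Ahcy. No named gene changed direction in these fits.

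Of 21 cholesterol synthesis enzymes, 6 rose in KO, none fell, 20 had a positive difference, and the median difference was 0.88 on the log2 scale against 0.00344 over all genes. In the mevalonate part 3 of 9 enzymes rose: Acat2, which joins acetyl-CoA units, Idi1, which isomerises the isoprenoid building block, and Fdps, which makes farnesyl diphosphate. In the steps from squalene to cholesterol 3 of 12 rose: Cyp51, the lanosterol demethylase, and Tm7sf2 and Nsdhl, which act on the demethylated sterol.

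Cyp51 (chr5:4080674-4104697, mm10) measured 126, 113, 116 and 110 CPM in the WT mice and 285, 233, 220 and 196 CPM in the KO mice. The groups were wide apart, and the difference was 1.01 ± 0.19 on the log2 scale (SE, n = 4 per group, edgeR adjusted p = 0.00583). Nsdhl measured 52.1, 42.6, 43.3 and 36.8 CPM in WT and 130, 89.9, 89.7 and 75.6 CPM in KO, a difference of 1.14 ± 0.21 (edgeR adjusted p = 0.00583). In both genes male KO replicate 1 was the highest of the 8 mice and female KO replicate 4 the lowest of the KO mice. Fdps rose from 255, 325, 219 and 280 CPM to 626, 546, 388 and 437 CPM (0.89 ± 0.20, edgeR adjusted p = 0.0244). Acat2 measured 108, 86.5, 101 and 88 CPM in WT and 197, 154, 171 and 170 CPM in KO (0.85 ± 0.19, edgeR adjusted p = 0.0258). Tm7sf2 had a smaller rise, from a mean of 122 ± 16.8 to 191 ± 20 CPM (SD, n = 4 each; 0.65 ± 0.15, edgeR adjusted p = 0.0341). Idi1 had the largest fold of the 6 at a low level, with 1.85, 1.2, 0.719 and 1.37 CPM in WT against 4.91, 6.88, 5.8 and 2.79 CPM in KO (1.97 ± 0.39, edgeR adjusted p = 0.00942). When each of the 8 libraries was left out in turn, Idi1 lost the call in 1 fit, Fdps in 5, and Acat2 and Tm7sf2 in 6.

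Another 11 sterol enzymes had an unadjusted p under 0.05 and did not pass the adjusted test, making 17 of 21 with a higher level at that threshold, against 4.64% of all genes. Among them were Hmgcs1, an early synthase of the route (1.28 ± 0.33, edgeR adjusted p = 0.0631), Msmo1 (1.12 ± 0.28, adjusted p = 0.0522) and Lss, the cyclase that makes lanosterol (0.98 ± 0.26, adjusted p = 0.0671). Ebp and Sc5d, late enzymes of the route, were level between the genotypes, with differences of -0.02 ± 0.12 and 0.09 ± 0.18. In the fit without the 4 libraries that went against their label, 13 of the 21 enzymes were called at ZT22, where 1.37% of all genes were. Fitted in males alone, 6 of the 9 mevalonate and 8 of the 12 later enzymes were called, and in females alone 0 of either, with 2 mice per group. Among the 75 genes none had a ZT22 difference that departed between the sexes in the direct test. The control genes of the route gave no call at ZT22, 0 of 11: Srebf2, which encodes SREBP2, differed by 0.01 ± 0.24, and Insig1, which holds it back, by -0.12 ± 0.26. Insig2 of the same list differed by 0.50 at ZT22 in the fit without the 4 libraries (edgeR adjusted p = 0.3). At ZT10 in that fit it was higher in KO by 2.34 (edgeR adjusted p = 5.91e-10), and the gap between the times was -1.84 (adjusted p = 0.00029). Of the 11 genes 2 were called higher and 3 lower at ZT10 there. Of 11 genes of sterol efflux and its LXR control, only Abca8b, a cholesterol exporter, rose (23.4, 16.6, 18.9 and 18.4 CPM in WT, 34.9, 27.4, 35.2 and 37.6 CPM in KO, 0.81 ± 0.18, edgeR adjusted p = 0.0258).

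**Figure D1:**
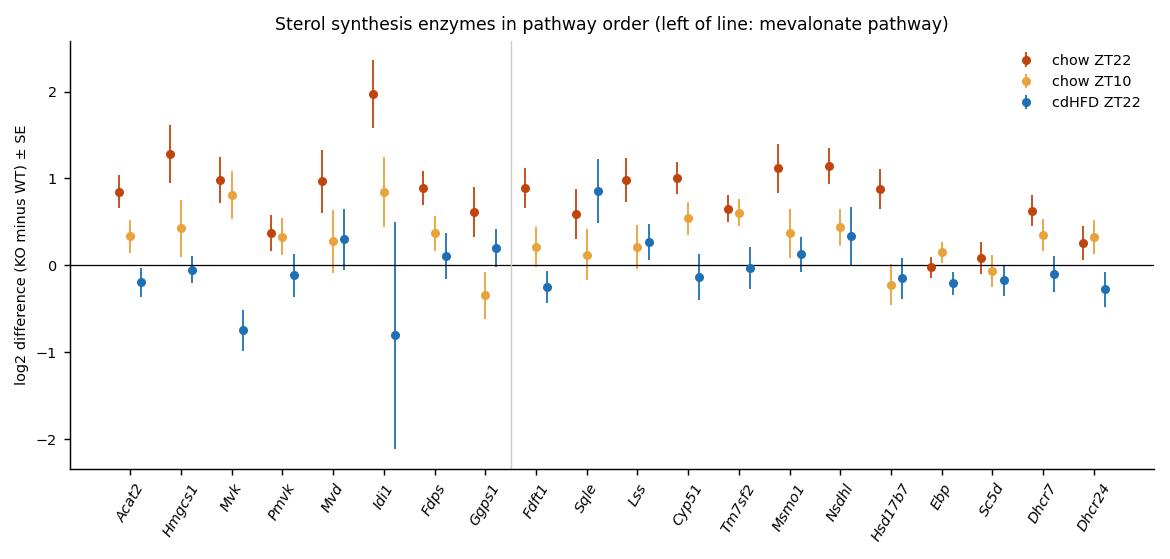
Log2 difference between Hep-Bmal1KO and Hep-Bmal1WT livers (y axis; points, fitted difference; bars, ± SE) for 20 of the 21 sterol synthesis enzymes in pathway order (x axis), on chow at ZT22, on chow at ZT10 and on cdHFD at ZT22 (4 libraries per group, 1 ZT10 library against its label included). On chow at ZT22 every plotted point but that of Ebp (-0.02) lies above 0, and the medians over the 21 enzymes are 0.882 there, 0.33 at ZT10 and -0.0986 on cdHFD.

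Several genes of foreign compound handling rose. Cyp3a59, a cytochrome P450 of the 3A family, had the smallest p of the higher genes, with 46.9, 37.8, 48.9 and 42.6 CPM in WT and 103, 111, 103 and 127 CPM in KO (1.33 ± 0.20, edgeR adjusted p = 0.000563). Cyp2c55, a P450 that oxidises arachidonic acid and other substrates, measured 8.72, 10.2, 1.44 and 7.6 CPM in WT and 109, 117, 142 and 219 CPM in KO (4.39 ± 0.84, edgeR adjusted p = 0.00724). Every KO mouse stood far above every WT mouse. With all libraries Cyp2c55 was the only one of 13 listed cytochromes to pass. Cyp2c29, for example, averaged 509 CPM in WT and 1035 CPM in KO without passing (1.02 ± 0.28, edgeR adjusted p = 0.087). Not every P450 that passed rose: Cyp2c23 and Cyp2d40, outside the list, were called lower in KO. In the fit without the 4 libraries against their label they differed by -0.83 and -1.52 (edgeR adjusted p = 0.000294 and 0.00284). The receptors CAR and PXR and their partners gave 0 of 7 with all libraries. Without the 4 libraries, 7 of the 30 listed genes of foreign compound handling were called higher at ZT22 and 2 lower. The 10 conjugating enzymes among the 30 held 5 of the higher calls and 1 of the lower.

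Among 10 conjugating enzymes 5 rose and none fell, all 5 of them glutathione transferases of the mu class, which lie side by side (chr3:107938847-108045179, mm10). Gstm3 measured 123, 162, 81.8 and 84.1 CPM in WT and 995, 1060, 1070 and 1890 CPM in KO (3.48 ± 0.64, edgeR adjusted p = 0.00583). Gstm2 measured 59.9, 60.7, 84.7 and 62.5 CPM in WT and 353, 407, 424 and 460 CPM in KO (2.62 ± 0.49, edgeR adjusted p = 0.00677). Gstm1 averaged 1976 ± 476 CPM in WT and 5383 ± 1391 CPM in KO (SD, n = 4; 1.45 ± 0.34, edgeR adjusted p = 0.0367). For Gstm6 the difference was 1.39 ± 0.32 and for Gstm4 1.23 ± 0.28 (edgeR adjusted p = 0.0307 and 0.0256). These genes are close copies of each other, so the share of reads each received is uncertain. The other listed conjugating enzymes gave no call, among them Gstt3 (-0.55 ± 0.60) and Gsta2 (-0.75 ± 0.48). Sult5a1, a sulfotransferase, measured 9.46, 7.01, 12.6 and 12 CPM in WT and 2.18, 4.27, 3.24 and 2.05 CPM in KO without passing (-1.80 ± 0.51, edgeR adjusted p = 0.103), and it fell in the fit without the 4 libraries against their label (adjusted p = 0.0401). Of 8 targets of NRF2, the oxidative stress factor, none was called.

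Lpl, lipoprotein lipase, which frees fatty acids from circulating triglyceride, is low in adult hepatocytes as a rule. It measured 16.7, 22.4, 15.3 and 42.1 CPM in WT and 300, 324, 282 and 315 CPM in KO (3.66 ± 0.77, edgeR adjusted p = 0.0195). The highest WT value belonged to replicate 4, the mouse with fat transcripts, and still lay far below every KO mouse. Defb1, an antimicrobial defensin of epithelia, rose from 3.15, 1.2, 5.57 and 4.56 CPM to 31.8, 29.3, 52.6 and 74.6 CPM (3.67 ± 0.80, edgeR adjusted p = 0.0216). Hectd2os, an RNA transcribed opposite Hectd2, averaged 15.6 ± 5.57 CPM in WT and 373 ± 60 CPM in KO (SD, n = 4; 4.58 ± 0.82, edgeR adjusted p = 0.00583), and its reads depend on how strand was treated in counting. Serpina7, the thyroxine-binding globulin of plasma, measured 16.1, 17.4, 12 and 12.9 CPM in WT and 89.1, 33.7, 56.1 and 90.1 CPM in KO (2.20 ± 0.49, edgeR adjusted p = 0.0244).

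**Figure D2:**
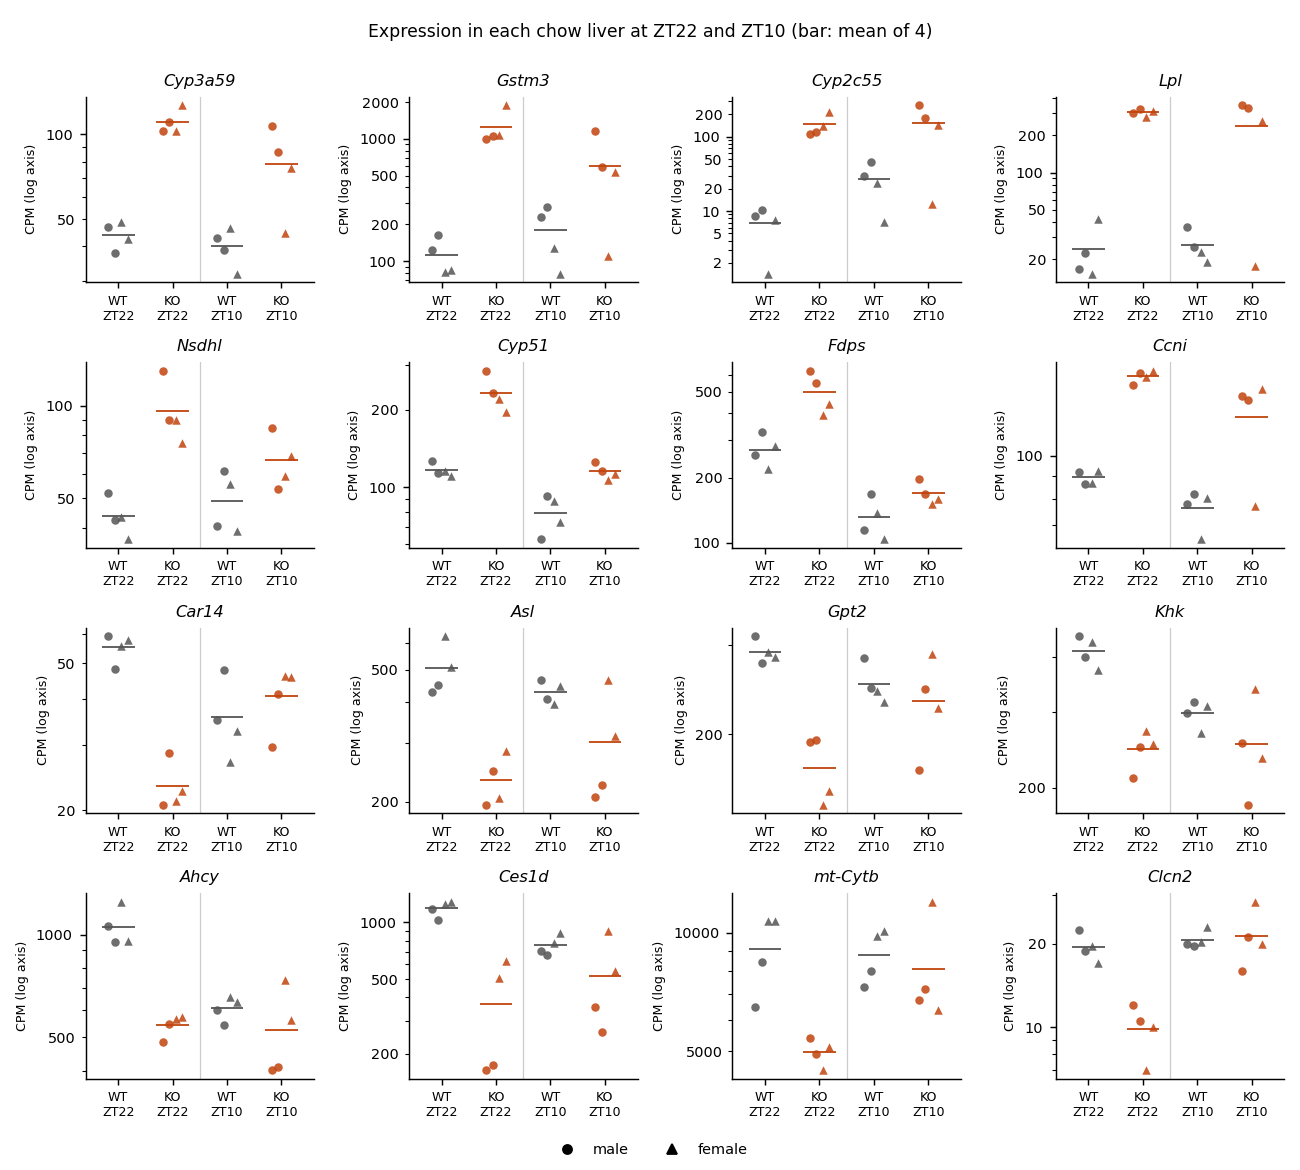
Expression of 16 genes in each chow liver (y axes, CPM on log scales) in 4 groups (x axes: WT and KO at ZT22, WT and KO at ZT10), circles for males, triangles for females, horizontal bars for the mean of 4. At ZT22 the KO and WT points are apart in every panel, and at ZT10 1 female KO point, replicate 3, lies with the WT in panels such as Lpl (17.6 CPM) and Cyp2c55 (12.6 CPM).

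Car14, a membrane carbonic anhydrase, had the smallest p of the lower genes at ZT22. It measured 59.3, 48.4, 55.7 and 57.9 CPM in WT and 20.7, 28.5, 21.2 and 22.6 CPM in KO, with little spread in either group (-1.25 ± 0.20, edgeR adjusted p = 0.00117). Asl, argininosuccinate lyase of the urea cycle, measured 428, 450, 631 and 511 CPM in WT and 196, 248, 205 and 284 CPM in KO (-1.12 ± 0.20, edgeR adjusted p = 0.00583). It was the only urea cycle gene of 7 to pass, since Cps1, the entry enzyme, differed by -0.14 ± 0.13, Ass1 by -0.09 ± 0.17 and Arg1 by -0.16 ± 0.14.

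Of 16 genes of amino acid catabolism, only Gpt2 fell, the mitochondrial alanine transaminase, with 313, 277, 291 and 285 CPM in WT and 193, 195, 145 and 154 CPM in KO (-0.76 ± 0.14, edgeR adjusted p = 0.00677). Ahcy, which removes the S-adenosylhomocysteine left by methylation, averaged 1054 ± 137 CPM in WT and 543 ± 39.9 CPM in KO (SD, n = 4; -0.96 ± 0.19, edgeR adjusted p = 0.00775). Khk, ketohexokinase, which phosphorylates fructose, measured 448, 400, 435 and 375 CPM in WT and 211, 248, 271 and 253 CPM in KO (-0.75 ± 0.15, edgeR adjusted p = 0.00775). It was the single call among 14 genes of glucose and glycogen handling with all libraries. In the fit without the 4 libraries against their label, Gys2, a glycogen synthase, was called lower too. It differed by -0.78 at ZT22 (edgeR adjusted p = 0.00373) and by -1.70 at ZT10 (adjusted p = 1.09e-08).

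Carboxylesterases, which hydrolyse drugs and lipid esters, fell in 3 of 11 cases, all from the Ces1 cluster (chr8:93056725-93229631, mm10), where near copies again make the split of reads uncertain. Ces1d measured 1180, 1030, 1260 and 1290 CPM in WT and 164, 174, 509 and 623 CPM in KO (-1.70 ± 0.42, edgeR adjusted p = 0.0446). The KO males were lower than the KO females here, and both lay under all WT mice. Ces1b (-1.86 ± 0.46, edgeR adjusted p = 0.0476) and Ces1e (-1.22 ± 0.27, adjusted p = 0.0244) fell as well, while Ces1c did not pass (-0.26 ± 0.29). These calls are near the threshold: Ces1b lost it whichever of the 8 libraries was left out, Ces1d in 7 fits and Ces1e in 5.

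Of the 8 mitochondrially encoded messenger RNAs tested, 3 fell and all 8 had negative differences. For mt-Nd4, a subunit of complex I, the means were 6204 ± 962 CPM in WT and 3756 ± 315 CPM in KO (SD, n = 4; -0.72 ± 0.14, edgeR adjusted p = 0.00775). The complex I subunit mt-Nd5 (-0.70 ± 0.14, edgeR adjusted p = 0.0107) and cytochrome b, mt-Cytb (-0.87 ± 0.18, adjusted p = 0.0125), behaved likewise. Mitochondrial transcripts together took 5.22 to 6.61% of the reads on genes in WT and 4.45 to 5.34% in KO, ranges that overlap.

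The largest falls in fold were in genes of low level. Slc13a2, a carrier of citrate and other dicarboxylates, measured 3.71, 7.61, 8.63 and 3.34 CPM in WT and 0.681, 0.826, 0.135 and 0.147 CPM in KO (-3.63 ± 0.87, edgeR adjusted p = 0.037). Serpine2, a protease inhibitor, measured 22.6, 32, 13.7 and 15.2 CPM in WT and 4.23, 4.27, 0.674 and 1.61 CPM in KO (-2.94 ± 0.66, edgeR adjusted p = 0.0249). Within each genotype the males were above the females for this gene. Mme, the membrane peptidase neprilysin, measured 18, 17, 41.2 and 30.6 CPM in WT and 1.09, 1.93, 6.47 and 4.7 CPM in KO (-2.91 ± 0.68, edgeR adjusted p = 0.0308), with the females higher in both. Col27a1, a fibrillar collagen, was at 7.6, 21.2, 4.49 and 4.1 CPM in WT and at 0.27 to 1.93 CPM in KO (-2.90 ± 0.63, edgeR adjusted p = 0.0216), and Ppp1r1b, a phosphatase inhibitor, fell from 6.2 ± 1.17 to 1.14 ± 0.429 CPM (SD, n = 4; -2.42 ± 0.54, edgeR adjusted p = 0.0244).

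At ZT10, 221 genes were called (1.42%), 188 higher and 33 lower in KO. Of the 75 genes of ZT22, 14 were called there too, all in the same direction, and 11 of these 14 were higher. Among them were Lpl (3.21, edgeR adjusted p = 0.0173), Gstm2 (2.11, adjusted p = 0.0153), Gstm6 (1.52, adjusted p = 0.00915), Cyp3a59 (0.97, adjusted p = 0.00591), Tm7sf2 (0.60, adjusted p = 0.0283) and, of the lower genes, Col27a1 (-2.13, adjusted p = 0.0363). The sign at ZT10 matched that at ZT22 in 70 of the 75, against 8810 of all 15548 genes. The groups did not overlap there for 14 of the 75 (5.47% of all genes). The median size of the difference was 1.14 at ZT22 and 0.54 at ZT10 on the log2 scale, a description only, because the genes were chosen on their ZT22 values, which favours the larger size there.

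The library labelled KO ZT10 replicate 3 decides much of this comparison, and without it alone 757 genes were called at ZT10. Its Lpl level was 17.6 CPM where the other KO mice of ZT10 had 350, 330 and 260 CPM, and its Mme level 40.9 CPM where they had 1.99, 2.71 and 4.91 CPM. Without the 4 libraries against their label, 896 genes were called at ZT10 (5.76%), 570 higher (3.67%) and 326 lower (2.1%). In that fit 41 of the 75 were called there in the same direction, and 73 of the 75 had the same sign, against 8904 of all 15548 genes. Genes that joined the ZT10 calls in that fit included Gstm3 (2.08, edgeR adjusted p = 0.00474), Cyp2c55 (2.89, adjusted p = 0.00101), Defb1 (3.24, adjusted p = 0.000112), Mme (-3.15, adjusted p = 8.31e-06), Asl (-0.78, adjusted p = 0.00669), Ces1b (-1.57, adjusted p = 0.00104) and mt-Nd4 (-0.60, adjusted p = 0.00162).

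**Figure D3:**
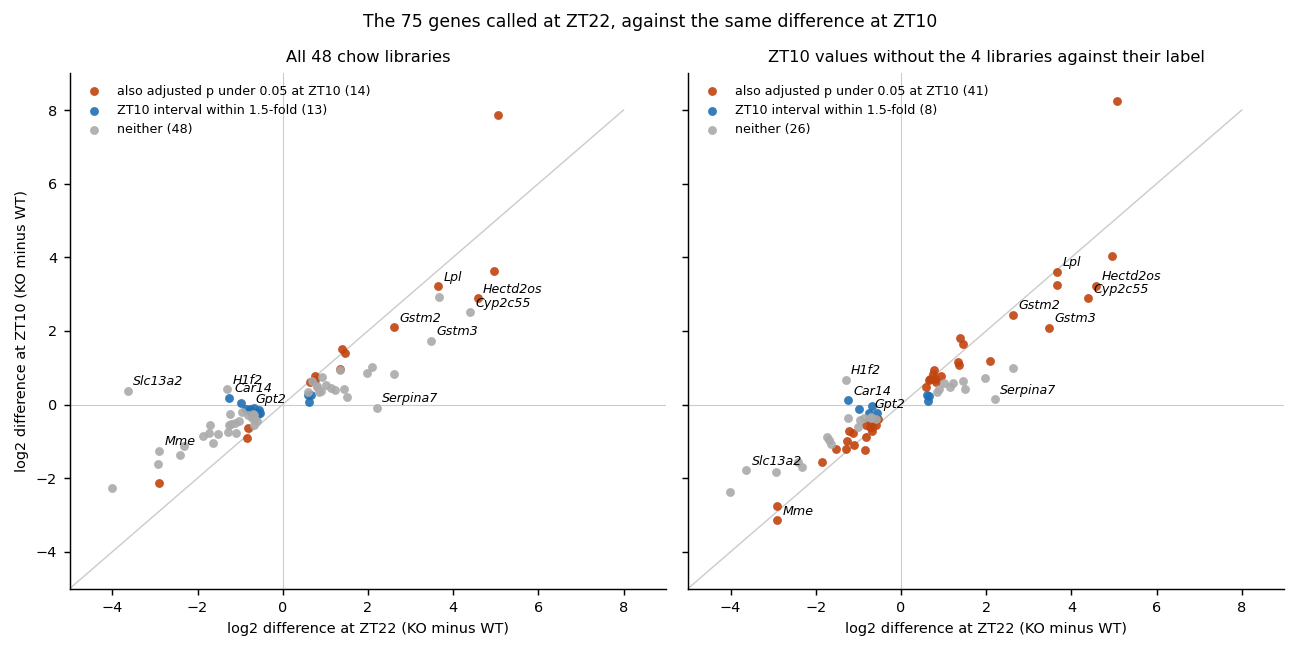
The 75 genes called at ZT22: log2 difference at ZT22 (x axes) against that at ZT10 (y axes), KO minus WT, with all 48 chow libraries (left) and with ZT10 values from the fit without the 4 libraries against their label (right). The diagonal marks equal differences. Red points, also called at ZT10, number 14 on the left and 41 on the right, and blue points, with a ZT10 interval within 1.5-fold, number 13 and 8.

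A gene that missed the threshold at ZT10 may still have differed there, so the genes without a difference of note at ZT10 were taken as those whose 95% interval at ZT10 lay within 1.5-fold either way. Of the 75 genes 13 met this, against 3727 of all genes (24%), and the remaining 48 were neither called at ZT10 nor held within that bound. The 10 lower genes of the 13 were Car14, Clcn2, mt-Cytb, Gpt2, Khk, mt-Nd5, Slc25a45, Gapdh, C1s1 and Sfxn1. Gle1 and Asah1 were among the 3 higher ones.

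Car14 measured 35.2, 48.1, 27 and 32.8 CPM in WT and 29.6, 41.2, 46.1 and 45.8 CPM in KO at ZT10, overlapping groups with a difference of 0.18 (95% interval -0.21 to 0.58). Clcn2, a chloride channel, measured 22.4, 18.8, 19.6 and 17 CPM in WT and 12, 10.5, 7.01 and 9.98 CPM in KO at ZT22 (-0.98 ± 0.21, edgeR adjusted p = 0.0216). At ZT10 its difference was 0.04 (interval -0.38 to 0.45). For Gpt2 the ZT10 values were 283, 247, 244 and 232 CPM in WT and 170, 246, 288 and 225 CPM in KO, a difference of -0.12 (interval -0.40 to 0.17). Khk lay at -0.24 (interval -0.53 to 0.06) with all libraries and at -0.41 (edgeR adjusted p = 0.048) without the 4 libraries, so that gene was called at both times in that fit, as was Sfxn1 (-0.38 at ZT10, edgeR adjusted p = 0.0378). Of the higher genes, Gle1, an mRNA export factor (0.63 ± 0.15, edgeR adjusted p = 0.0435), and Asah1, acid ceramidase (0.66 ± 0.15, adjusted p = 0.0244), had ZT10 differences of 0.06 and 0.25. Without the 4 libraries 8 of the 75 were held within the bound (19.3% of all genes were), among them Car14, Clcn2, Gpt2, Slc25a45, C1s1, Gle1 and Asah1. The intervals of mt-Cytb, mt-Nd5 and Gapdh then reached -0.70, -0.66 and -0.67, outside it.

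The difference between the ZT22 and ZT10 effects was tested directly for every gene. With all libraries 3 genes passed (0.0193%), all with the more negative value at ZT22: Car14 (-1.44 ± 0.28, edgeR adjusted p = 0.0351), Nfil3 and Arntl. Car14 was the only one of the 75 among them, and 22 of the 75 had an unadjusted p under 0.05, against 1118 of all genes (7.19%), which is no independent reading because the 75 were chosen on ZT22. Without the 4 libraries 71 genes passed (0.457%), including Car14 (-1.37, edgeR adjusted p = 0.00999) and H1f2, a linker histone. H1f2 measured 43.9, 64.1, 73.2 and 87.9 CPM in WT and 22.1, 34.3, 24.7 and 28.2 CPM in KO at ZT22 (-1.30 ± 0.28, edgeR adjusted p = 0.0197). At ZT10 it measured 14.8, 18.3, 7.68 and 9.66 CPM in WT and 22, 21.8, 6.09 and 16.8 CPM in KO, and the difference of the effects was -1.71 ± 0.40 with all libraries (edgeR adjusted p = 0.181) and -1.98 without the 4 (adjusted p = 0.0017).

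Other genes with large gaps between the times did not pass. With all libraries Serpina7 differed by 2.20 at ZT22 and -0.09 at ZT10 (edgeR adjusted p of the gap = 0.452), and Slc13a2 by -3.63 and 0.37 (adjusted p = 0.492). Without the 4 libraries the ZT10 difference was 0.14 for Serpina7 and -1.78 for Slc13a2, the latter in the direction of ZT22. These gaps did not pass in that fit either (edgeR adjusted p = 0.234 and 0.724). Among the sterol enzymes 6 of 21 had an unadjusted p under 0.05 for the gap and none passed the adjusted test, with Hsd17b7 at 0.88 and -0.22. In the urea cycle list 6 of 7 genes had an unadjusted p under 0.05, all more negative at ZT22, and none passed: Cps1 went from -0.14 to 0.50 and Slc25a15, the ornithine carrier, from 0.13 to 0.76. Both were called higher at ZT10 (edgeR adjusted p = 0.0395 and 0.0283), and neither was called at ZT22. These urea cycle values are from the fit with all libraries. Without the 4 libraries the gaps of Asl and Arg1 were -0.33 and 0.05 (edgeR unadjusted p = 0.191 and 0.797). In that fit 3 of the 7 genes were called higher and 1, Asl, lower at ZT10, and again no gap passed.

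None of 33 clock and clock output genes was called at ZT22, where 5 had an unadjusted p under 0.05, all lower (5.08% of all genes were). Other fits called some of them at ZT22: Arntl when only the libraries compared were fitted (-1.05, edgeR adjusted p = 0.0281), Npas2 (3.31, adjusted p = 0.0143) and Usp2 (-1.41, adjusted p = 0.0311) in males alone, and 4 of the 33 when only the libraries compared were fitted with sex, Arntl, Npas2 (1.53, adjusted p = 0.0244), Tspan4 and Nampt. Arntl itself measured 18.5, 10.6, 15.8 and 13.5 CPM in WT and 6.27, 8.26, 6.88 and 6.9 CPM in KO, groups apart by -1.05 ± 0.44 (edgeR adjusted p = 0.379). At ZT10 the order was the other way, with 1.15, 0.659, 0.179 and 0.568 CPM in WT and 7.35, 5.42, 0.218 and 6.69 CPM in KO (2.96, edgeR adjusted p = 0.00716), where 0.218 belongs to replicate 3. The gap between the times was -4.00 ± 0.76 (edgeR adjusted p = 0.0351). Reads at the 3′ end need not lie in the deleted stretch of the gene, so Arntl reads do not measure the deletion.

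Nfil3, a repressor driven by the clock, averaged 26.4 ± 6.05 CPM in WT and 20.4 ± 1.2 CPM in KO at ZT22 (SD, n = 4; -0.37 ± 0.26), but was higher in KO at ZT10 (1.90, edgeR adjusted p = 0.00164), a gap of -2.27 ± 0.41 (adjusted p = 0.0311). Clock itself differed by -0.10 ± 0.23 at ZT22 and was higher in KO at ZT10 (1.04, edgeR adjusted p = 0.0156). Npas2, the partner that can stand in for Clock, was split by sex in WT at ZT22, with 1.67 and 0.2 CPM in the males and 10.4 and 8.97 CPM in the females, against 10.2, 8.95, 15.9 and 15.9 CPM in KO (1.23 ± 0.83, edgeR adjusted p = 0.691). Dbp, an output factor of the clock, was at 6.68, 8.61, 6.11 and 5.02 CPM in WT and 6.54, 8.81, 4.85 and 9.25 CPM in KO at ZT22, overlapping throughout. At ZT10 it was at 220, 165, 270 and 249 CPM in WT and at 20.2, 32.5 and 36.3 CPM in the KO mice other than replicate 3, which had 315 CPM. Over the 33 genes, 6 were called at ZT10 with all libraries (5 higher, 1 lower) and 20 without the 4 libraries (7 higher, 13 lower), when 9 also differed between the times.

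**Figure D4:**
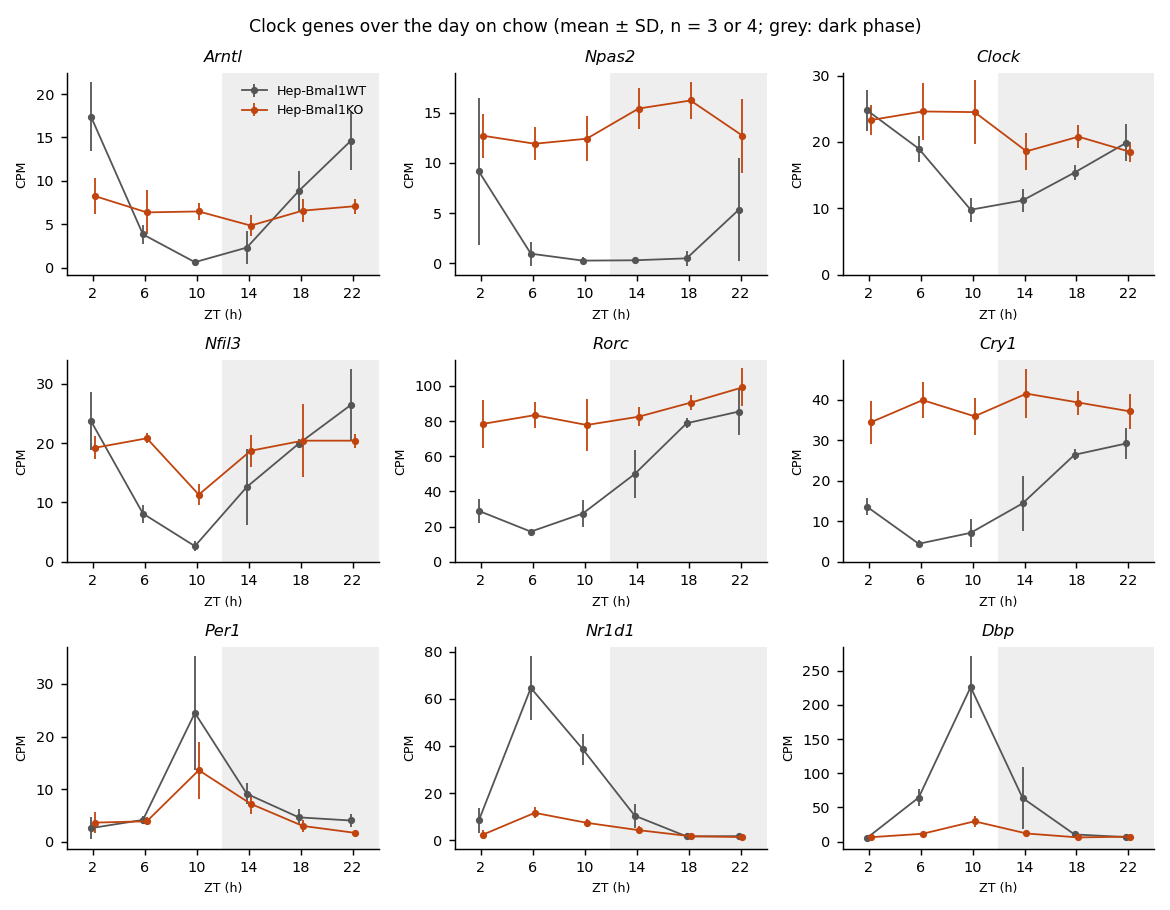
Mean ± SD CPM (y axes) over the day (x axes, ZT in hours; grey, dark phase) for 9 clock genes in chow livers, WT in grey and KO in red, without the libraries that went against their label (n = 3 or 4). The curves of Dbp meet at ZT22, at 6.6 CPM in WT and 7.36 CPM in KO, and stand apart at ZT10, and those of Arntl cross between the same times.

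The ZT22 genes were followed through the other times on chow. Without the libraries against their label, the sign matched that of ZT22 in 72 of 75 at ZT2, 69 at ZT6, 70 at ZT14 and 71 at ZT18, and 28, 16, 51 and 47 of the 75 were called in the same direction, where 0.92%, 1.36%, 4.61% and 1.84% of all genes were called. With all libraries 6, 0, 35 and 0 of the 75 were called in the same direction at these times, when 21, 0, 476 and 1 of all genes were called. In that fit 54 of the 75 kept 1 sign at all 6 times, against 2020 of all 15548 genes. Lpl was above WT at every time, with mean levels of 264 to 343 CPM in KO and 13.7 to 47.3 CPM in WT when the libraries against their label were left out. The KO mean of Car14 was not below the WT mean at any other time: it was 38.5 CPM against 24 CPM in WT at ZT14 and 55.4 against 46.7 CPM at ZT18, and then 23.2 against 55.4 CPM at ZT22. In the fit without the libraries against their label the sterol synthesis median was 0.775 at ZT2, 0.433 at ZT6, 0.348 at ZT10, 0.624 at ZT14, 0.838 at ZT18 and 0.882 at ZT22, with 14 of 21 enzymes called at ZT18 and 1 at ZT10. With all libraries the median at ZT18 was 0.621 and 0 of 21 were called.

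On cdHFD the ZT22 comparison called 31 genes (0.199%), from other mice. Of the 75 chow genes 61 had the same sign there, against 8551 of all 15548 genes. Of the 75, 3 were called: Lpl (1.18 ± 0.25, edgeR adjusted p = 0.0272), Ces1b (-1.20 ± 0.26, adjusted p = 0.0275) and Slc13a5, the citrate carrier (2.19 ± 0.46, adjusted p = 0.0272). On chow Slc13a5 rose from 0.663 ± 0.572 to 4.19 ± 1.99 CPM (SD, n = 4; edgeR adjusted p = 0.0428). The sterol enzymes gave 0 of 21 with a median of -0.0986. The cdHFD contains added cholesterol, and the part of that cholesterol in this contrast was not tested. When the ZT22 effect on chow was tested against that on cdHFD over all 96 libraries, 1 gene of 15548 passed (0.00643%), Car14, which was lower in KO on chow and had a difference of 0.81 ± 0.25 on cdHFD (gap -2.06 ± 0.33, edgeR adjusted p = 0.000316). For the sterol list 13 of 21 had an unadjusted p under 0.05 and none passed, the nearest being Mvk, mevalonate kinase, with a gap of 1.73 (edgeR adjusted p = 0.0531). Over all genes 1120 had an unadjusted p under 0.05 (7.2%).

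**Figure D5:**
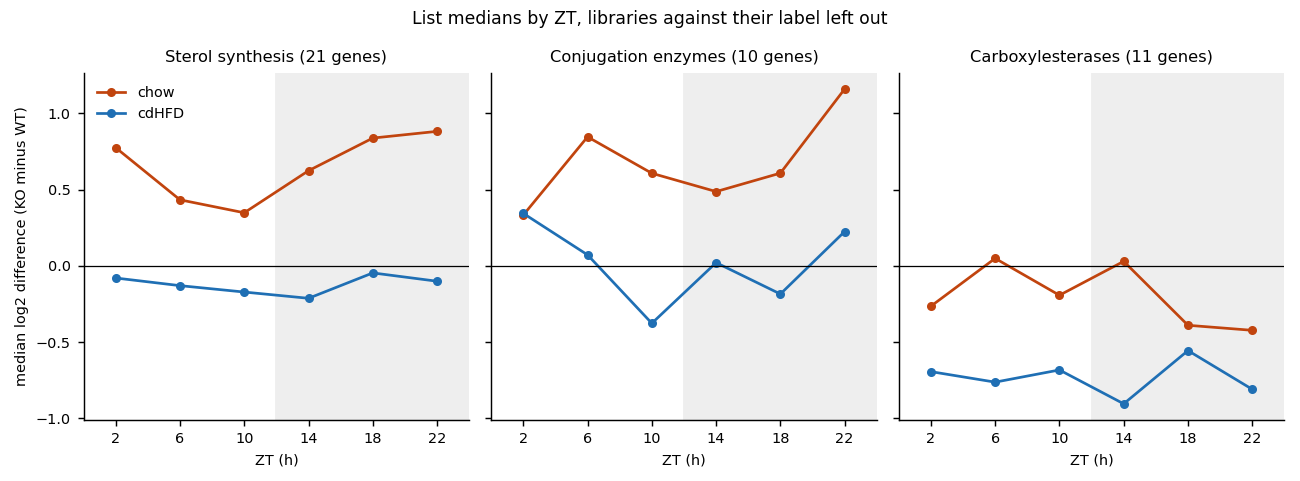
Median log2 difference between Hep-Bmal1KO and Hep-Bmal1WT livers (y axes) over the genes of 3 lists at each ZT (x axes, hours; grey, dark phase), on chow and on cdHFD, libraries against their label left out. The sterol synthesis median on chow lies between 0.348 and 0.882 and that on cdHFD between -0.213 and -0.0465.

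Many liver functions gave no call at ZT22 with all libraries. Bile acid genes gave 0 of 19, among them Cyp7a1, the rate-limiting enzyme of bile acid synthesis (-0.40 ± 0.42). Lipogenic genes gave 0 of 12, with a median of -0.523, 11 of 12 negative and 4 with an unadjusted p under 0.05, such as Thrsp (-1.36 ± 0.50, edgeR adjusted p = 0.291) and Srebf1 (-0.58 ± 0.27, adjusted p = 0.463). Hepatocyte transcription factors gave 0 of 10 with all 10 negative, Hnf4a at -0.46 ± 0.15 (edgeR adjusted p = 0.21). Fatty acid oxidation (0 of 14), PPAR-alpha targets (0 of 16), insulin signalling (0 of 9), the unfolded protein response (0 of 12), acute phase proteins (0 of 14) and interferon-stimulated genes (0 of 11) gave none either. The fit without the 4 libraries against their label called some members lower at ZT22. These were 1 lipogenic gene, 1 hepatocyte factor, 2 genes of fatty acid oxidation, 1 PPAR-alpha target and 1 gene of insulin signalling. Kupffer cell markers summed to 342 to 488 CPM in WT and 363 to 498 CPM in KO, and stellate and endothelial marker sums overlapped as well.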

How the data were processed

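Bulk BRB-seq libraries of 96 mouse livers were deposited by the authors as 1 table of raw read counts per gene. The submitters' processing notes name STAR, HTSeq, featureCounts, DESeq2 and mm10, and versions and strand setting are not given in the sources used here. The 5 rows that name no gene held 22.6 to 39.9% of each library and were left out. No 2 replicates were copies: counts differed by 7.99 to 127 times the sampling noise in 24 pairs. Libraries held 1861740 to 9718615 reads on genes.

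Genes with at least 100 counts summed over all libraries (15548 of 55487) were fitted in edgeR 4.0.16 (R 4.3.3; TMM, quasi-likelihood test, two-sided) with 12 group means over the 48 chow libraries, 36 residual degrees of freedom and no sex term. Contrasts were KO minus WT at ZT22, at ZT10, and their difference, with Benjamini-Hochberg adjustment over all genes. SE is the log2 difference divided by the root of F, and CPM are TMM-scaled. P-values measure the spread between mice within the 12 groups, with the 4 libraries against their label included unless stated. Gene positions come from RefSeq GRCm38.p6, the mm10 assembly. In simulated counts 71% of 100 genes changed by 1 log2 unit at ZT22 and 16% of 100 changed by 0.585 were called, and 4.4% of 91 calls were false. For the test of ZT22 against ZT10 these shares were 15% and 1%, and 5.88% of 17 calls were false. The changed genes were drawn from those with a mean of at least 5 CPM, so the shares called do not cover lower genes. Sex differences and libraries against their label were not simulated, and entered only through the spread estimated from the data.

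Members and gene lists were chosen with earlier results of these data known. Named genes are the clock lists, the 8 smallest p and 5 largest differences per direction at ZT22 (mean of at least 5 CPM), the 5 smallest p per direction for ZT22 against ZT10, the 5 largest per direction within the ZT10 bound, and up to 4 of each list by p. Genes outside this rule (among them Ebp, Sc5d, Srebf2, Insig1, Lss, Mvk, Hsd17b7, Gstm6, Cyp7a1, Cyp2c29, Cyp2c23, Cyp2d40, Cps1, Ass1, Slc25a15, Slc13a5 and the smaller ones within the ZT10 bound) were chosen after their values were seen. Alternatives were DESeq2 1.42.0, its size factors, other filters, sex as covariate, other sets of libraries, thinning and leaving out each library. The fit of the compared libraries with sex, and the tests by diet and by sex at ZT22, were added after the values were seen. Some list members are counted but not reported here by name.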

Additional observations from a re-analysis of the deposited data

Results flagged for a closer look

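In 5 of 126 groups of 4 named-gene values at ZT22, 1 library stood apart from the other 3 by Dixon's 95% criterion (gap over range above 0.829), where chance gives about 1 in 20 groups, 6.3 here. They were Nr1d1 in WT replicate 2 (2.4 CPM, others 1.44 to 1.52), Arntl2 in KO replicate 2 (0.138 CPM, others 0), Gstm3 in KO replicate 4 (1890 CPM, others 995 to 1070), Gstm2 in WT replicate 3 (84.7 CPM, others 59.9 to 62.5) and Arl2bp in KO replicate 3 (5.8 CPM, others 10.3 to 10.9). The Gstm3 and Gstm2 groups of the 2 genotypes were still apart with these libraries in them.

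For 3 genes the difference between genotypes at ZT22 departed from that at ZT10 in the direct test. The gap was -1.44 for Car14, -2.27 for Nfil3 and -4.00 for Arntl (log2 scale, edgeR adjusted p = 0.0351, 0.0311 and 0.0351). When each of the 16 libraries was left out in turn, Car14 lost this call in 11 cases, Nfil3 in 9 and Arntl in 13, and no gap changed sign.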

How the results depend on the processing

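No paired analysis was possible because the labels give no replicate numbers. The main counts were 75 genes at ZT22, 221 at ZT10, 3 for the gap between them and 13 called at ZT22 with a ZT10 interval within 1.5-fold. In the same order, DESeq2 gave 179, 411 and 24 (interval count not run), DESeq2 size factors 76, 218, 6 and 13, a filter of 10 counts in 4 libraries 82, 266, 6 and 16, and no filter 102, 224, 6 and 11. Sex as covariate gave 230, 358, 7 and 43, only the compared libraries 152, 4, 1 and 13, the same with sex (chosen after seeing the data) 509, 358, 7 and 94, and all 96 libraries 185, 417, 4 and 21. Without the 4 libraries against their label the counts were 213, 896, 71 and 20, in males alone 169, 480, 24 and 4, in females alone 78, 0, 1 and 9 (the female KO group at ZT10 holds the library against its label), and thinned to the lowest total 68, 129, 2 and 9. Leaving out 1 library gave 21 to 118, 45 to 757, 0 to 40 and 3 to 16, with the lowest ZT22 count without WT replicate 2, 3 or 4 and the highest of the first 3 without KO ZT10 replicate 3. None of the 39 named genes called at ZT22 changed direction in any setting. All 39 kept the call with DESeq2, its size factors, the stricter filter, sex as covariate and without the 4 libraries, 27 in males, 15 in females and 16 to 29 when a ZT22 library was left out. The causes were not tested. Depth limits genes near 1 CPM.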

Other observations

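The ZT22 difference between genotypes was also compared between males and females (2 per group, edgeR, chosen after seeing the data). It departed in 3 of 15548 genes (0.0193%), and 829 had an unadjusted p under 0.05. They were Prlr, the prolactin receptor (gap, males minus females, 1.53 on the log2 scale, adjusted p = 0.00604), Hspa8, a constitutive chaperone, and the predicted gene Gm4956. None of them was called at ZT22 over both sexes.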
